A study of Homo sapiens with 12 samples.

Results

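Binding of E2F1, CASP8AP2, NPAT and HINFP was examined by ChIP-Seq at the promoters of 10 genes of DNA replication: the 6 subunits of the MCM2-7 helicase (MCM2, MCM3, MCM4, MCM5, MCM6 and MCM7), MCM10, CDC6, PCNA and POLA1. The genes were chosen by name, with earlier results of these data known. For each, every listed region with its summit within 2 kb of the transcription start site (TSS, NCBI36 coordinates) was taken, in each of 8 libraries. This gave 89 regions of 1636159 in all, 29 of them for E2F1 and 60 for the other factors. The factors were precipitated from hTERT-RPE1 cells, retinal pigment epithelial cells immortalized with telomerase, and from U2OS osteosarcoma cells, with no treatment named in the labels. Chromatin was cross-linked with 1% formaldehyde, and 5 µg of antibody was used for each precipitation. Rabbit IgG was the control for E2F1, CASP8AP2 and NPAT, which thus share their control in a line, and goat IgG was the control for HINFP. There was 1 library per factor and line, so the spread between replicates is unknown, and a cell line cannot be told apart from its library.

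E2F1 is a transcription factor that is held inactive by the retinoblastoma protein in G1 and activates genes of DNA synthesis as cells enter S phase. MCM2-7 is a ring of related ATPases that is loaded onto origins in G1 and unwinds DNA at the fork. CDC6 helps to load the ring, MCM10 takes part in its activation, PCNA is the sliding clamp of the replicative polymerases, and POLA1 is the catalytic subunit of the polymerase that makes the first stretch of each new strand. MCM, CDC6, PCNA and POLA1 genes are textbook targets of the E2F family. CASP8AP2, NPAT and HINFP are known as regulators of histone genes, which are also expressed at S phase.

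The promoter sequences are printed here with exact matches to a few E2F motifs marked. Other forms of the motif were not searched for, so unmarked letters may hold them. RefSeq promoter sequences (GRCh38.p14) were found for 8 of the 10 genes, and those of MCM4 and MCM5 were not used here. Printed first are the genes with a significant E2F1 region in both lines and a sequence (MCM2, MCM3, MCM7, CDC6 and POLA1), from 250 bases before the TSS on, 5′ to 3′ in the direction of transcription. MCM6 and PCNA were added after the values were seen, MCM6 for its repeated sites and PCNA because E2F1 was not significant there. Capitals mark a match on either strand to an E2F motif, which was TTCCCGC or its variants with other central letters. These variants were TTCGCGC and also TTGCCGC. The last variant searched was TTGGCGC, and matches may overlap.
MCM2 (chr3:127598161-127598440, plus strand): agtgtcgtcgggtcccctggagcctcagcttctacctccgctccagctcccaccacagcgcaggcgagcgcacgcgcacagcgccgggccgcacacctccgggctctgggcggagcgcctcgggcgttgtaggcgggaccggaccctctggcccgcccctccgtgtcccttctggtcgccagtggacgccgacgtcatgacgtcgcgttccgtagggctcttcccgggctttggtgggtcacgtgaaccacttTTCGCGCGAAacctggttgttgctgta
MCM3 (chr6:52284713-52284992, minus strand): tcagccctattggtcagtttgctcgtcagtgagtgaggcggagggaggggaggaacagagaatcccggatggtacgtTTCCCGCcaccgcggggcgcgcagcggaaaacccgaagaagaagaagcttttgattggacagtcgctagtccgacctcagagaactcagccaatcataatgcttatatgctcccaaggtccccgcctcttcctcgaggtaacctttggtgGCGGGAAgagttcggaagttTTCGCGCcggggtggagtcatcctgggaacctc
MCM7 (chr7:100101368-100101647, minus strand): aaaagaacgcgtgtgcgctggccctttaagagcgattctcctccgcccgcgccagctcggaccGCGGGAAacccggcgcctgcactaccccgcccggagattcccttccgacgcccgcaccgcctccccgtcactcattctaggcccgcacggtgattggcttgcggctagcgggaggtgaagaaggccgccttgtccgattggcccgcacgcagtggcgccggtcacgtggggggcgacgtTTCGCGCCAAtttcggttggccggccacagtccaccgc
CDC6 (chr17:40287629-40287908, plus strand): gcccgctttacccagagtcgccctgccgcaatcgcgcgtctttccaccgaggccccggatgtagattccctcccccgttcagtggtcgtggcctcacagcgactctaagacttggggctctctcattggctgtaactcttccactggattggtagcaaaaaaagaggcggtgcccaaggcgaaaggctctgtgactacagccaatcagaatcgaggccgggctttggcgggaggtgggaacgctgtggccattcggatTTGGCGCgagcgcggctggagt
POLA1 (chrX:24693668-24693947, plus strand): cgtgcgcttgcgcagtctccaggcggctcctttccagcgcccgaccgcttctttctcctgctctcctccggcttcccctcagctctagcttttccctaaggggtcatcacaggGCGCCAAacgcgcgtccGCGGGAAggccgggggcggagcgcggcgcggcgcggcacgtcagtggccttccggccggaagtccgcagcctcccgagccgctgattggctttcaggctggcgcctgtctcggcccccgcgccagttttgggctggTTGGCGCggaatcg
MCM6 (chr2:135876414-135876693, minus strand): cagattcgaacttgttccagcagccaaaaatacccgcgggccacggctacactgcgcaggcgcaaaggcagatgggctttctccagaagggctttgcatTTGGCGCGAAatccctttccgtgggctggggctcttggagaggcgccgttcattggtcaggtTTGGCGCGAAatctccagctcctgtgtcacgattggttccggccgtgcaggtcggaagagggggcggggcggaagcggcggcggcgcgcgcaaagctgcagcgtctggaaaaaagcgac
PCNA (chr20:5126593-5126872, minus strand): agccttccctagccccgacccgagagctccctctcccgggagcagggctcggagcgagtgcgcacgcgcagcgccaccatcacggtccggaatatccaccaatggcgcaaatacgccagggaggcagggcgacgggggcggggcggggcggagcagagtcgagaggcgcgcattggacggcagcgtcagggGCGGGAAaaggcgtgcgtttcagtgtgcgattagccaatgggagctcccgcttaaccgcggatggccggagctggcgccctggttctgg

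E2F1 had a listed region at each of the 10 genes in both lines. Each list held between 39603 and 478015 regions. The depth ratio of ChIP to IgG implied by the deposited fold changes was 0.858 to 1.23. A region was called significant when its deposited p-value was under 0.00001 and its fold change, ChIP over IgG after scaling for depth, exceeded 2. By this rule 6 genes had a significant region in hTERT-RPE1 cells (MCM2, MCM3, MCM4, MCM7, CDC6 and POLA1), where 0.707% of all listed E2F1 regions were significant. In U2OS cells these 6 and also MCM5 and MCM6 were significant, 8 genes in all, against 0.748% of all listed regions. MCM10 and PCNA were significant in neither line. The share of all regions is a background for regions anywhere in the genome and not for promoters, and a gene could pass through any of its regions. In what follows the raw ratio is (ChIP sequences + 1) / (IgG sequences + 1), and unless stated otherwise values are those of the region with the summit nearest to the TSS. All p-values are those deposited, unadjusted, and cover counting error between 1 ChIP and 1 IgG library.

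**Figure D1:**
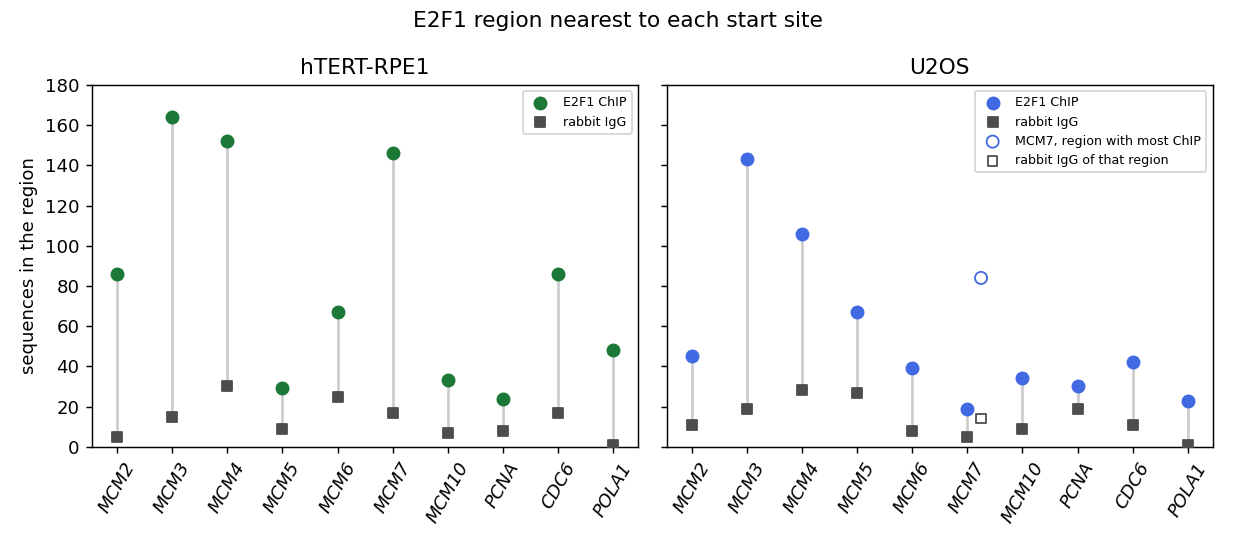
Sequences counted in the E2F1 ChIP library (circles) and in the rabbit IgG library (squares) for the region nearest to each TSS, in hTERT-RPE1 (left) and U2OS cells (right), with 1 library each and no error bar. Open symbols give the MCM7 region with the most ChIP sequences in U2OS cells. MCM3 had the most ChIP sequences in both lines, 164 and 143, and POLA1 the fewest IgG sequences, 1 in each.

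The nearest E2F1 summit was within 100 bp of the TSS at 7 genes in hTERT-RPE1 cells and at 8 in U2OS cells. The median distance was 34.5 bp and 43 bp. These regions were picked by distance, within 2 kb and significant or not, so the values are descriptive. Picked alike, at the genes with a listed region, the median was 362 and 242.5 bp for CASP8AP2. It was 798 and 232.5 bp for NPAT, and 546.5 and 350 bp for HINFP. MCM7 was the gene with the farthest nearest summit in both lines, as described below. Between the lines, the summits of the regions with the most ChIP sequences were 1 to 63 bp apart, with a median of 23.5 bp. The smallest gap was at MCM2 and the largest at MCM5.

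Among the helicase genes, MCM3 had the strongest E2F1 region by p-value. The hTERT-RPE1 region spanned 6:52256870 to 52257861 (NCBI36) and held 164 ChIP and 15 IgG sequences, a raw ratio of 10.3 (p-value 1.27e-31). This was rank 12 of 1516 significant E2F1 regions in that line. In U2OS cells the region at 6:52257154 to 52258489 had 143 ChIP and 19 IgG sequences, a raw ratio of 7.20 (p-value 6.41e-27), rank 20 of 938. The summits lay 7 bp and 28 bp upstream of the TSS, and the read pile reached 106 and 82 reads there, the highest of all 89 regions.

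MCM2 had the highest raw ratio of the helicase genes in hTERT-RPE1 cells. Its region at 3:128799713 to 128800382 had 86 ChIP and 5 IgG sequences, a raw ratio of 14.5 (p-value 1.01e-19). In U2OS cells 45 ChIP and 11 IgG sequences gave a raw ratio of 3.83 (p-value 5.58e-07), at 3:128799721 to 128800126. The ChIP count was thus higher and the IgG count lower in hTERT-RPE1 cells, in a longer region (670 against 406 bp), with the summits 21 and 20 bp upstream of the TSS.

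At MCM4 the region was over 1 kb long in both lines and held the most IgG sequences of the 10 genes. In hTERT-RPE1 cells, 152 ChIP and 30 IgG sequences at 8:49034962 to 49036297 gave a raw ratio of 4.94 (p-value 6.82e-20). In U2OS cells, 106 ChIP and 28 IgG sequences at 8:49035067 to 49036317 gave 3.69 (p-value 1.93e-13). High ChIP counts at MCM4 therefore came with a raw ratio near the median over the 10 genes, which was 4.88 in hTERT-RPE1 and 3.64 in U2OS cells.

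MCM5 and MCM6 were the genes called in U2OS cells alone, and both were near the threshold in that line or the other. The MCM5 region of U2OS cells at 22:34125379 to 34126444 had 67 ChIP and 27 IgG sequences, a raw ratio of 2.43 (p-value 4.24e-06), rank 760 of 938. In hTERT-RPE1 cells a region of 465 bp at 22:34125729 to 34126193 had 29 ChIP and 9 IgG sequences, a raw ratio of 3.0 (p-value 0.000965). The raw ratio was thus higher in the line where the region was not significant, and the count was lower.

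The MCM6 region of U2OS cells at 2:136349954 to 136350737 had 39 ChIP and 8 IgG sequences, a raw ratio of 4.44 (p-value 6.13e-07). In hTERT-RPE1 cells it had 67 ChIP and 25 IgG sequences at 2:136349937 to 136350804, a raw ratio of 2.62 (p-value 1.56e-05). More sequences were counted in hTERT-RPE1 cells in both the ChIP and the IgG library. At a p-value under 0.0001 MCM6 was called in both lines.

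MCM7 differed from the other genes in the position of E2F1. In hTERT-RPE1 cells a single region of 1701 bp at 7:99536021 to 99537721 spanned the TSS, with 146 ChIP and 17 IgG sequences, a raw ratio of 8.17 (p-value 9.33e-26). Its summit lay 915 bp downstream of the TSS, inside the gene. In U2OS cells separate regions were listed here, 4 of them within 2 kb of the TSS. The nearest of these, with its summit 234 bp upstream, had 19 ChIP and 5 IgG sequences (p-value 0.00127). The next had its summit 338 bp downstream, with 57 ChIP and 23 IgG sequences (p-value 2.07e-05). The third, at 7:99536012 to 99536645 with its summit 939 bp downstream, had 84 ChIP and 14 IgG sequences, a raw ratio of 5.67 (p-value 8.09e-15), and it alone was significant. The last had 12 ChIP and 14 IgG sequences. The highest read pile of both lines was therefore about the same distance inside the gene, 47 reads in hTERT-RPE1 and 60 in U2OS cells. RefSeq lists further MCM7 start sites 643 and 868 bp downstream of the first, and the start of AP4M1, a gene of an adaptor complex of vesicle transport, 603 bp inside MCM7. These distances are from GRCh38.p14 and were not moved to NCBI36, and which start site the reads belong to was not tested.

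CDC6, the loading factor, had a significant region in both lines. In hTERT-RPE1 cells 86 ChIP and 17 IgG sequences at 17:35696903 to 35698085 gave a raw ratio of 4.83 (p-value 5.79e-12). In U2OS cells 42 ChIP and 11 IgG sequences at 17:35697281 to 35697972 gave 3.58 (p-value 2.58e-06), rank 684 of 938. The summits lay 48 and 43 bp upstream of the TSS.

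MCM10 was just outside the threshold in both lines. It had 33 ChIP and 7 IgG sequences in hTERT-RPE1 cells, with a raw ratio of 4.25 (p-value 2.69e-05), at 10:13243321 to 13243783. In U2OS cells it had 34 ChIP and 9 IgG sequences, with a raw ratio of 3.50 (p-value 2.35e-05), at 10:13243393 to 13243894. Its values were close in both lines, its summits lay 5 and 42 bp downstream of the TSS, and at a p-value under 0.0001 it was called in both.

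PCNA had the weakest E2F1 region of the 10 genes by p-value in both lines. The hTERT-RPE1 region, 20:5055120 to 5055691, had 24 ChIP and 8 IgG sequences, a raw ratio of 2.78 (p-value 0.00370). The U2OS region, 20:5055129 to 5055908, had 30 ChIP and 19 IgG sequences, a raw ratio of 1.55 (p-value 0.0383). The summits lay 37 and 43 bp upstream of the TSS, nearer than those of POLA1 at 123 and 88 bp upstream. In U2OS cells PCNA was the gene with a fold change under 2, at 1.65.

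POLA1 had the highest raw ratio of the 10 genes in both lines, and this rests on a single IgG sequence. In hTERT-RPE1 cells 48 ChIP and 1 IgG sequences at X:24621546 to 24622218 gave a raw ratio of 24.5 (p-value 1.71e-13). In U2OS cells 23 ChIP and 1 IgG sequences at X:24621658 to 24622103 gave 12.0 (p-value 3.84e-07). By p-value POLA1 was rank 161 of 1516 and 498 of 938, so it did not lead the genes on that scale. The IgG library had 1.49 and 2.24 sequences per kb there, against a median of 15.0 and 18.9 per kb over all listed E2F1 regions.

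**Figure D2:**
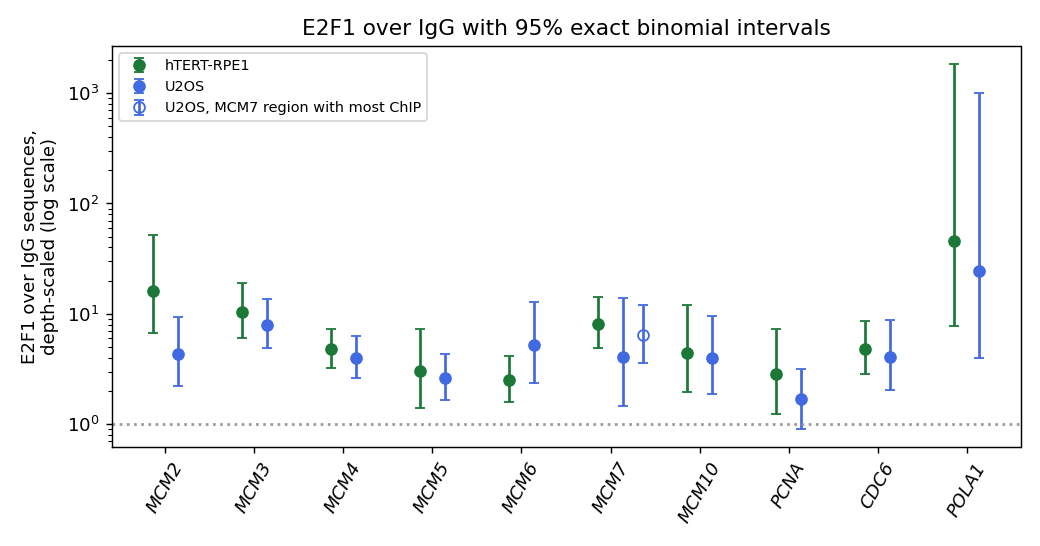
E2F1 over IgG sequences, scaled for depth, on a log axis, for the region nearest to each TSS in hTERT-RPE1 (green) and U2OS cells (blue), with 1 library each. Bars are 95% exact binomial intervals of counting error, the open circle is the MCM7 region of U2OS cells with the most ChIP sequences, and the dotted line marks equal ChIP and IgG. The bars of the lines overlap at each gene, and only that of PCNA in U2OS cells reaches below 1.

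Within a line, most neighbours in the order of the genes could not be told apart. The depth-scaled ratio of ChIP to IgG was given a 95% Clopper-Pearson interval, which covers counting error only. In hTERT-RPE1 cells the interval ran from 7.77 to 1829 at POLA1, from 6.71 to 51.4 at MCM2, from 6.09 to 18.9 at MCM3 and from 4.90 to 14.3 at MCM7. All of these lay above the interval of MCM6, 1.58 to 4.19, and that of POLA1 also lay above those of MCM4, MCM5 and PCNA. The others overlapped that of MCM6, with 3.22 to 7.34 at MCM4, 2.82 to 8.59 at CDC6, 1.94 to 11.9 at MCM10, 1.40 to 7.32 at MCM5 and 1.23 to 7.30 at PCNA. In U2OS cells the interval of MCM3, 4.93 to 13.7, lay above those of MCM5, 1.66 to 4.28, and PCNA, 0.913 to 3.15. That of POLA1, 3.96 to 1006, lay above PCNA's. The wide intervals of POLA1 come from its IgG count of 1.

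Between the lines, no gene had intervals that did not overlap, 0 of 10. Among 20925 pairs of overlapping E2F1 regions of both lines 0.822% did not overlap in their intervals, which was the case for 5.06% of the pairs significant in at least 1 line and for 1.87% of the 536 pairs significant in both. The fold change was higher in hTERT-RPE1 cells at 9 of the 10 genes, and higher in U2OS cells at MCM6. The median of hTERT-RPE1 over U2OS was 1.24 for the genes, against 1.02 for the pairs significant in both lines, of which 51.9% were higher in hTERT-RPE1 cells. The largest difference was at MCM2, 3.37 times higher in hTERT-RPE1 cells, with intervals of 6.71 to 51.4 and 2.21 to 9.31. MCM6 was at 0.524, with 1.58 to 4.19 and 2.38 to 12.8. MCM3, MCM4, MCM5, MCM10 and CDC6 were between 1.08 and 1.28, PCNA was at 1.60 and POLA1 at 1.82. At MCM7 it was 2.18 with the nearest U2OS region and 1.28 with the one that held the most ChIP sequences. When all regions within 2 kb of the TSS were summed, the MCM7 intervals of the lines no longer overlapped, which is the 1 gene where the choice of regions decided this count. With 1 library a line these are differences between libraries.

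The other 3 factors had no significant region at any of the 10 genes in either line, 0 in each of the 6 libraries. The background of significant regions in these libraries was also low, 0.112% and 0.0927% for CASP8AP2, 0.259% and 0.108% for NPAT, and 0.393% and 0.5% for HINFP, in hTERT-RPE1 and U2OS cells. A p-value under 0.05 in any region within 2 kb was found at 3 and 2 genes for CASP8AP2, 4 and 4 for NPAT, and 3 and 3 for HINFP. With the nearest region alone NPAT had 4 and 0, and the others were the same. For E2F1 it was found at all 10 genes in each line. Of all listed regions, 46.3% and 42.6% had such a p-value for E2F1, 42.6% and 37.4% for CASP8AP2, 48.3% and 36.1% for NPAT, and 56.4% and 53.3% for HINFP.

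With looser limits the other factors reached up to 4 of the 10 genes, and any region within 2 kb could pass. A fold change above 2 without a p-value limit was met for E2F1 at 10 genes in hTERT-RPE1 and 9 in U2OS cells, against 53.5% and 46.6% of all listed regions. For CASP8AP2 it was met at 3 and 1 genes (50.8% and 44.1% of all regions), for NPAT at 4 and 4 (57.3% and 43.7%) and for HINFP at 3 and 2 (60.1% and 59.8%). With a Benjamini-Hochberg adjusted p-value under 0.05 over all listed regions and the fold limit, E2F1 was called at 10 and 9 genes, against 29.5% and 19.0% of all regions. CASP8AP2 was then called at 3 and 0 genes (22.1% and 10.3% of all regions), NPAT at 3 and 0 (33.2% and 10.9%) and HINFP at 2 and 1 (43.4% and 38.0%). MCM2 was called by this limit for CASP8AP2 and NPAT in hTERT-RPE1 cells, and MCM3 for HINFP in U2OS cells. When p-values under 0.0001 were taken with the fold limit, E2F1 was called at 8 genes in hTERT-RPE1 and 9 in U2OS cells, against 1.74% and 1.49% of all regions, and HINFP at MCM3 in U2OS cells, against 1.47%. At a p-value under 1e-10, E2F1 was called at 6 and 3 genes (0.132% and 0.161% of all regions), and with a fold change above 5 at 4 and 3 (0.38% and 0.355%). The lists hold only regions at least 8 reads high, so these shares are of regions picked for height.

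**Figure D3:**
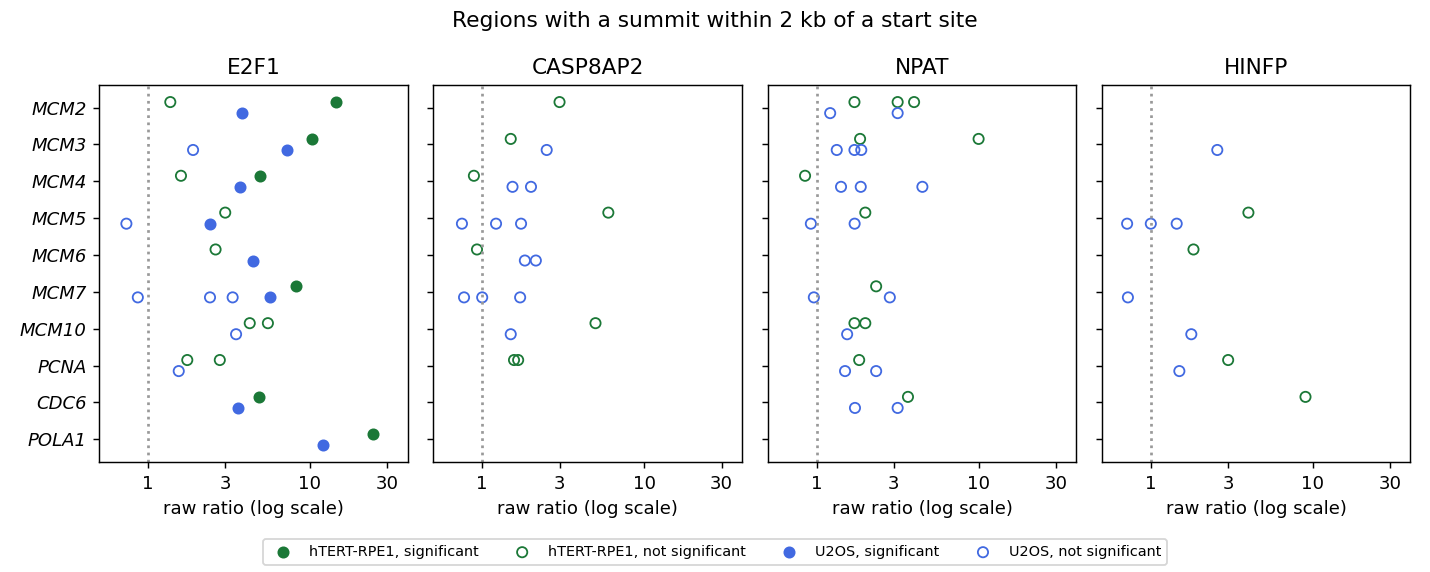
Raw ratio on a log axis of every listed region with its summit within 2 kb of a TSS, by gene (rows) and factor (panels), in hTERT-RPE1 (green) and U2OS cells (blue). Filled circles are significant regions, open circles are not, and the dotted line marks a ratio of 1. Filled circles stand in the E2F1 panel alone, at 6 genes in green and 8 in blue.

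A region was listed from a height of 8 reads on. The highest read pile of these regions was 12 and 19 for CASP8AP2, 12 and 17 for NPAT and 12 and 11 for HINFP, in hTERT-RPE1 and U2OS cells. Those of 19 and 17 were both at MCM5 in U2OS cells, and exceeded the E2F1 heights at PCNA (14 and 12) and at POLA1 in U2OS cells (16). These piles were not significant. The CASP8AP2 pile of 19 lay 1783 bp downstream of the TSS, with 27 ChIP and 22 IgG sequences (p-value 0.348). The NPAT pile of 17 had 54 and 31 sequences (p-value 0.0604). Where a gene had no listed region, the height of the reads there is not known, and the absence is not a count of 0. CASP8AP2 had no listed region at 3 genes in hTERT-RPE1 cells (MCM7, CDC6 and POLA1) and at 4 in U2OS cells (MCM2, PCNA, CDC6 and POLA1). NPAT had none at MCM6 and POLA1 in both lines. HINFP had none at 6 genes in hTERT-RPE1 cells (MCM2, MCM3, MCM4, MCM7, MCM10 and POLA1) and at 5 in U2OS cells (MCM2, MCM4, MCM6, CDC6 and POLA1). POLA1, with the highest E2F1 ratio, was thus the gene with no listed region of another factor in either line. Its E2F1 regions held few rabbit IgG sequences, 1.49 and 2.24 per kb, against medians of 15.0 and 18.9 over all listed E2F1 regions. Whether low coverage kept regions of the other factors off the lists was not tested.

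The lowest p-value of these 60 regions was that of HINFP at MCM3 in U2OS cells, 9.83e-05, with 35 ChIP and 13 IgG sequences, a raw ratio of 2.57 and a fold change of 3.0. Its summit lay 45 bp downstream of the TSS, and its read pile was 9 reads high over 1317 bp. HINFP had no listed region at MCM3 in hTERT-RPE1 cells. The next values for HINFP were at CDC6 in hTERT-RPE1 cells, with 8 ChIP and 0 IgG sequences (p-value 0.00196), and at MCM5 in the same line, with 15 and 3 sequences and 0.00223.

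For NPAT the lowest p-value was at MCM2 in hTERT-RPE1 cells, 0.000552, with 23 ChIP and 5 IgG sequences and a raw ratio of 4.0. In U2OS cells the nearest NPAT region at MCM2 had 16 and 13 sequences (p-value 0.506), and another, 561 bp downstream of the TSS, had 18 and 5 (p-value 0.0130). NPAT at CDC6 had 21 ChIP and 5 IgG sequences in hTERT-RPE1 cells (p-value 0.00142), and 18 and 10 in U2OS cells, with 0.173. Another NPAT region of U2OS cells, 702 bp upstream of the CDC6 TSS, had 18 and 5 sequences (p-value 0.0130), close to the hTERT-RPE1 counts. For CASP8AP2 the lowest value was at MCM10 in hTERT-RPE1 cells, 0.00204, with 14 ChIP and 2 IgG sequences, and the U2OS region at that gene had 8 and 5 sequences (p-value 0.264).

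At MCM2 and MCM4 the factors could be set side by side close to the TSS in hTERT-RPE1 cells, with the same rabbit IgG library as control. At MCM4 the E2F1 summit lay 1 bp downstream of the TSS, that of NPAT 33 bp upstream and that of CASP8AP2 95 bp upstream. E2F1 had 152 ChIP and 30 IgG sequences over 1336 bp, NPAT had 16 and 19 over 347 bp, and CASP8AP2 had 15 and 17 over 365 bp. The depth-scaled interval was 3.22 to 7.34 for E2F1, 0.376 to 1.60 for NPAT and 0.377 to 1.72 for CASP8AP2, so the latter held the value of equal ChIP and IgG. At MCM2 the summits of E2F1, CASP8AP2 and NPAT lay at -21, -101 and 116 bp. Here the interval was 1.59 to 14.4 for NPAT (23 ChIP and 5 IgG sequences) and 1.11 to 10.8 for CASP8AP2 (17 and 5). Both were above equal ChIP and IgG, and that of E2F1, 6.71 to 51.4, also with 5 IgG sequences, overlapped both. Only regions at least 8 reads high were listed. Of all listed regions of this line, 48.3% for NPAT and 42.6% for CASP8AP2 had a p-value under 0.05. These intervals alone therefore do not show that NPAT or CASP8AP2 bound at MCM2. In U2OS cells the MCM4 regions lay farther from the TSS and each had more ChIP than IgG sequences. These were 11 and 5 and 39 and 25 for CASP8AP2, and 14 and 7, 16 and 11 and 8 and 1 for NPAT. Of these the last had the lowest p-value, 0.0236.

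MCM5 in U2OS cells had the highest ChIP counts of CASP8AP2 and NPAT among the 10 genes, together with high IgG counts. CASP8AP2 had 65 ChIP and 37 IgG sequences in a region of 1483 bp, with a raw ratio of 1.74 (p-value 0.00999). NPAT had 54 and 31 sequences over 1040 bp, with 1.72 (p-value 0.0604), and HINFP had 25 and 17 over 809 bp, with 1.44 (p-value 0.0424). The second E2F1 region of MCM5 in this line, 1327 bp downstream of the TSS, had 27 ChIP and 37 IgG sequences, and summed with the first it brought the E2F1 raw ratio down to 1.46.

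**Figure D4:**
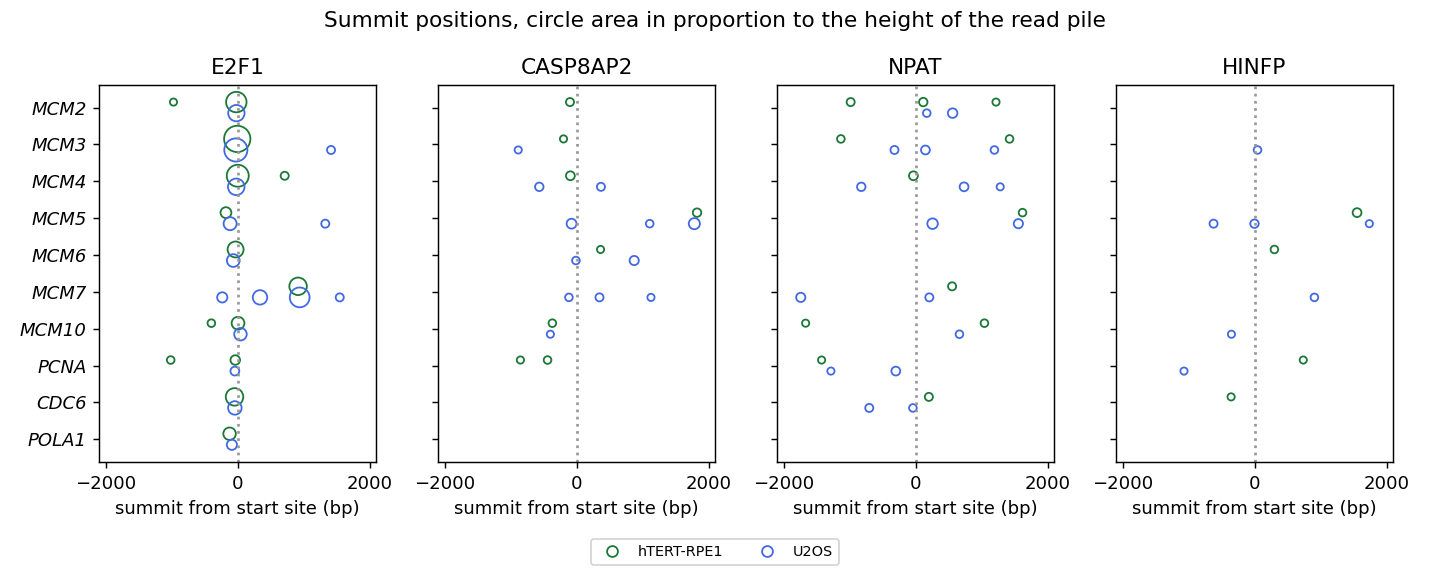
Position of each summit relative to the TSS in bp, with downstream to the right, by gene (rows) and factor (panels), in hTERT-RPE1 (green) and U2OS cells (blue). The area of a circle is in proportion to the height of the read pile, from 8 to 106 reads. The largest circles, 106 and 82 reads, are those of E2F1 at the MCM3 TSS, and the largest at MCM7 stand 915 and 939 bp downstream. The other factors reach at most 19 reads, which is above E2F1 at PCNA. That pile is CASP8AP2 in U2OS cells, 1783 bp downstream of the MCM5 TSS, with 27 ChIP and 22 IgG sequences.

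In the promoter sequences, a match to the E2F motifs above was found at 7 of the 8 genes with an entry, and in 8 of their 11 entries, since MCM7 has 3 start sites in the table and PCNA a pair. Of all 35116 RefSeq promoters of this length, 12.2% held a match. In 6 of the 11 entries, at 5 genes, there were at least 2 matches, which 1.62% of all promoters had. The genes include textbook E2F targets, so this is a description of these windows, and a match is not a binding site. Positions are counted from the first transcribed base as 0.

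MCM6 held 4 matches in 2 places, at -151 to -142 and at -89 to -80, where TTGGCGC on the plus strand overlaps TTCGCGC on the minus strand. It was significant for E2F1 in U2OS cells alone, but near the limit in hTERT-RPE1 cells (p-value 1.56e-05), with overlapping intervals. MCM2 had its matches in 1 place, from 3 to 12, where TTCGCGC is met on both strands. MCM3 had TTCCCGC at -173 and -23 and TTCGCGC at -3, and its E2F1 summits lay at -7 and -28 from the NCBI36 TSS. MCM7 had matches at -187 and at -8 to 1 before its first start, and at -164 and -140 before the start 643 bp downstream. The start 868 bp downstream had none.

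POLA1 had TTGGCGC at -137, TTCCCGC at -120 and TTGGCGC at 16, beside E2F1 summits at -123 and -88. CDC6 had a single match, TTGGCGC at 8, and PCNA a single one, TTCCCGC at -59. MCM10 had no match, and its E2F1 raw ratios of 4.25 and 3.50 were above those of PCNA, with overlapping intervals in both lines. Only the exact motifs named above were searched for. TTGGCGG, which differs from TTGGCGC in its last letter, was not among them and occurs in the MCM10 and CDC6 windows. MCM6 with 4 matches had an E2F1 raw ratio of 2.62 in hTERT-RPE1 and 4.44 in U2OS cells. MCM3 with 3 matches had 10.3 and 7.20. POLA1, also with 3, had 24.5 and 12.0, on 1 IgG sequence in each line. In U2OS cells the intervals of these genes overlapped. A link between the number of matches and the ratio was not tested. The start sites of the builds need not be the same base, so these positions and those of the summits are only set side by side.

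CCAAT, the core of the NF-Y motif, was found on either strand in 10 of the 11 entries, against 33.6% of all promoters. It was found at 7 of the 8 genes, and MCM2 was the gene without it. The GC box GGGCGG was found in 9 of the 11 entries, against 44.1%, and at 6 of the 8 genes. A gene with several entries could pass through any of them. CGTCCGC, a core taken for HINFP, was found at POLA1 and before the second start of PCNA, against 3.86% of all promoters. POLA1 had no listed HINFP region in either line. The second start of PCNA lies 6664 bp downstream of the first in GRCh38.p14, outside the 2 kb window. HINFP at that match was therefore not examined. The GC content of the windows was between 57.1% and 71.4%, with a median of 58.2% over all promoters.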

How the data were processed

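ChIP-Seq regions were taken from 8 lists, 1 per factor and line. The authors mapped the reads to NCBI36 and called regions with a tool not given in the sources used here. Per the file headers the lists hold whole-number counts of ChIP and IgG sequences, the height (the signal at the summit, at least 8 reads), a fold ratio and a p-value as deposited. The fold change equals (ChIP + 1) / (IgG + 1) over a constant of each list, 0.858 to 1.23, which was read as its depth ratio. Total reads per library were not known. IgG was used only through these counts.

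Regions were assigned to a gene when the summit lay within 2 kb of the NCBI36 TSS supplied with the gene list. Significance used the limits of the methods, a p-value of 0.00001 and a fold change above 2, with the p read as an upper limit although the methods print it with a greater-than sign. Intervals are 95% Clopper-Pearson, and the assignment was tested on simulated regions. Strands came from RefSeq, or, for MCM4 and MCM5, from textbook knowledge. Promoter windows run from 250 bases before the TSS to 29 after it, and were searched for exact motif letters on both strands. The genes were named by the list itself, and the promoters printed by the call in both lines. Those of MCM6 and PCNA were printed as well, added after the values were seen. The members and lists were chosen with earlier results of these data known. Values for further origin genes were not computed, as no NCBI36 annotation was used here. Alternatives were other p, fold and window limits, region overlap, the nearest or summed regions and a Benjamini-Hochberg adjusted p-value under 0.05 over all listed regions, which was chosen after seeing the data. Intervals were computed with scipy 1.17.1 and plots drawn with matplotlib 3.10.9, under Python 3.11.15 with pandas 2.3.3 and numpy 2.4.6.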

Additional observations from a re-analysis of the deposited data

How the results depend on the processing

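The counts of E2F1 genes were the same with the summit within 1 kb or 5 kb, or with overlap in place of the summit. With a fold change above 2 and no p-value limit, or an adjusted p-value under 0.05, 10 genes were called in hTERT-RPE1 cells in place of 6, but 53.5% and 29.5% of all listed regions then passed. In U2OS cells 8 genes became 3 at a p-value under 1e-10 (MCM3, MCM4 and MCM7) and 3 with a fold change above 5 (MCM3, MCM7 and POLA1). In hTERT-RPE1 cells these limits left 6 and 4. Of all listed regions, 0.161% and 0.355% passed these limits in U2OS cells and 0.132% and 0.38% in hTERT-RPE1 cells. With the fold limit alone, 3 and 1 genes were called for CASP8AP2 in hTERT-RPE1 and U2OS cells, 4 and 4 for NPAT, and 3 and 2 for HINFP, in place of 0. With the adjusted p-value these were 3 for CASP8AP2, 3 for NPAT and 2 for HINFP in hTERT-RPE1 cells and 1 for HINFP in U2OS cells, where 1 gene (MCM3) also passed at a p-value under 0.0001, as did 1.47% of all listed regions. The share of all listed regions under the adjusted p-value was 22.1%, 33.2%, 43.4% and 38.0%. The count of genes whose intervals did not overlap went from 0 to 1 (MCM7) with all regions summed. The cause of these changes is the limit or the regions taken, by construction. The IgG count of 1 at POLA1 leaves its ratio imprecise, and total reads per library are unknown. No paired analysis was possible because each factor and line had 1 library and the labels give no replicate numbers.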
